A study of Mus musculus with 13 samples.

Results

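Anti-Müllerian hormone (AMH) and the bone morphogenetic proteins (BMPs) use one receptor system, and its expression was examined in Sertoli cells of adult mice. The 10 genes described were the ligands *Amh* and *Bmp4*, the receptors *Amhr2*, *Bmpr2*, *Bmpr1a*, *Bmpr1b* and *Acvr1*, the signal transducers *Smad1* and *Smad5*, and the target gene *Id1*. They were taken by exact gene name from the 27111 features with a gene name in the count table, and all 10 were found. There were samples of 6 control and 7 MSUS mice, wild-type males of the C57Bl/6J strain. MSUS pairs unpredictable separation of pups from the dam with unpredictable stress of the dam. MSUS pups spent 3 h per day away from the dam, at irregular times, between postnatal days 1 and 14. The dams' own stressor, given in those hours, was a swim (5 min at 18°C) or being restrained (20 min). Control litters were not disturbed, and cells were taken from adult males. The spread between samples of a group is thus a spread between mice. It also holds differences in cell preparation and library making, which cannot be told apart from those between mice. Testes were digested with enzymes, and diploid, large cells with a high MitoTracker signal were sorted, so the samples are enriched preparations and not pure cells.

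AMH is the hormone by which fetal Sertoli cells make the Müllerian ducts regress, and its production falls when Sertoli cells mature at puberty. It binds the type II receptor AMHR2, which has no other known ligand, and then recruits a type I receptor shared with the BMPs (BMPR1A, ACVR1 or BMPR1B). BMPs such as BMP4 bind the same type I receptors together with BMPR2 or an activin type II receptor. Both routes phosphorylate SMAD1, SMAD5 and SMAD9, which enter the nucleus with SMAD4 and switch on target genes, of which the Id genes are the best known.

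Promoters are shown for *Amhr2* and *Bmp4*, *Amhr2* as the most abundant of the genes and *Bmp4* as a ligand that was hardly detected. The sequences are the 250 bases before the RefSeq start on GRCm38.p6, at chr15:102445117-102445366 on the plus strand for *Amhr2* and at chr14:46390670-46390919 on the minus strand for *Bmp4*. Capitals mark AAGGTCA, the letters bound by the nuclear receptor NR5A1, searched on both strands.
Amhr2: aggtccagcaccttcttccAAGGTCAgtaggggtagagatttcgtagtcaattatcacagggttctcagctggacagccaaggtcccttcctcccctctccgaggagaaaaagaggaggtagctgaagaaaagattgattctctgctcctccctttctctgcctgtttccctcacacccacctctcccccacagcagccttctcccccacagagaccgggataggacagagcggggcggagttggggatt
Bmp4: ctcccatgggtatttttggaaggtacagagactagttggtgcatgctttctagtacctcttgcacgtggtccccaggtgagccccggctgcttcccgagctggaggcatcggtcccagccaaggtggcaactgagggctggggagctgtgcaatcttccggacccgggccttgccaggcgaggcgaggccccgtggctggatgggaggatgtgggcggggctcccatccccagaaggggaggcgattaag
The *Amhr2* window held 1 match and the *Bmp4* window held 0, while 4.08% of 32851 RefSeq promoter windows of this length held at least 1. Of the 10 genes, 8 had an entry in the promoter table, and *Amh* and *Id1* had none. The BMP response letters GGCGCC, searched on both strands, occurred in the entries of *Bmpr1a* and *Bmpr2* and in 1 of 3 entries of *Smad5*, against 9.59% of all windows. These matches describe letters and not sites of binding.

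Control libraries held 13087203 to 18649945 estimated counts in total, and MSUS libraries 12701776 to 15693938. Levels are log2 CPM, counts scaled to library size after TMM normalization. Values with ± are means and SD over the 6 control or the 7 MSUS samples, and SE is the standard error of a log2 fold change. Levels of single genes are compared with each other only per kb of exon (log2 CPM per kb), because longer transcripts collect more reads. Sums over marker lists are plain CPM, not scaled to length, and the lists differ in size. All 12 markers of Sertoli cells had at least 10 counts in every sample. They summed to 13902 to 17081 CPM in controls and to 14010 to 16849 CPM in MSUS samples. Markers of other cells were also detected, with 34.7 to 90.5 CPM for 7 Leydig cell genes, 54.8 to 75.5 CPM for 7 endothelial genes and 728 to 1772 CPM for 4 elongated spermatid genes over the 13 samples. None of the 10 marker lists, one of which holds immediate early genes, had an adjusted p-value under 0.05, the smallest being 0.653 (two-sided exact permutation test).

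The system was dominated by one receptor. Per kb, *Amhr2* stood above 99.7% of the genes tested, and the other 9 genes were at 77.8% or below. The order in control samples was *Amhr2* with 9.20 ± 0.08 log2 CPM per kb, *Bmpr1a* with 3.97 ± 0.13, *Bmpr2* with 3.14 ± 0.14, *Smad5* with 2.78 ± 0.11, *Amh* with 2.34 ± 0.33 and *Acvr1* with 2.13 ± 0.22. Then followed *Smad1* with 0.22 ± 0.27, *Id1* with 0.06 ± 0.59, *Bmp4* with -2.72 ± 0.64 and *Bmpr1b* with -3.15 ± 0.88. *Amhr2*, *Bmpr1a*, *Bmpr2* and *Smad5* followed each other in this order in all 13 samples, with no overlap between neighbours. *Smad5* and *Amh*, *Amh* and *Acvr1*, *Smad1* and *Id1*, and *Bmp4* and *Bmpr1b* overlapped in their ranges. Within samples, *Smad5* exceeded *Amh* in 12 of 13 and *Amh* exceeded *Acvr1* in 11 of 13. The order was less steady for *Smad1* over *Id1*, with 6 of 13, and *Bmp4* over *Bmpr1b*, with 8 of 13. That of *Amh* and *Acvr1* turned with the gene length used. *Acvr1* measured 4829 bases as the union of exons, 3293 as the longest and 2745 as the median transcript. *Amh* measured 1670 bases each time, and with either shorter length *Acvr1* had the higher control mean.

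**Figure D1:**
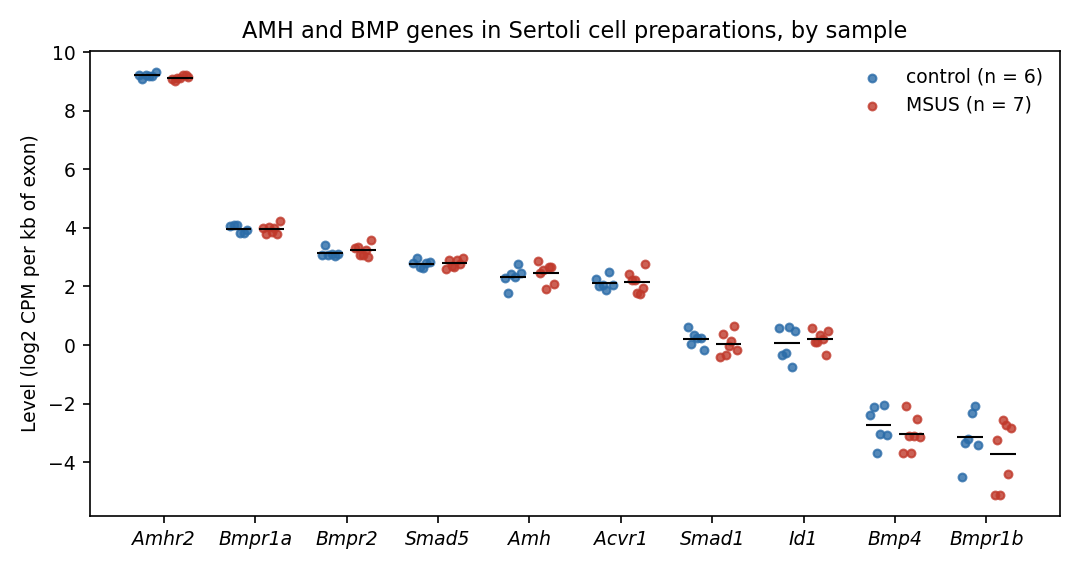
Level of each of the 10 genes in log2 CPM per kb of exon (vertical axis), by sample, for 6 control (blue) and 7 MSUS (red) samples, with black lines at the group means. *Amhr2* lies above all other genes in every sample, and the control and MSUS points of each gene overlap.

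*Amh*, the ligand, was present at a middling level. It lies on chromosome 10 of GRCm38 from 80805243 to 80807648. Its estimated counts were 81, 92.5 and 152 (lowest, median and highest) in controls and 66, 99 and 139 in MSUS samples. Control samples had 3.08 ± 0.33 log2 CPM and MSUS samples 3.20 ± 0.34, with the lowest value in control 10 and the highest in MSUS 1. Per kb of the union of exons, 49.7% of the genes tested were below it, so by this measure *Amh* was about as abundant as the median gene. *Amh* has 1 annotated transcript, and its rank with other gene lengths was not computed. The variance between samples of a group was 5.42 times the counting noise, so counting error was the smaller part of its spread. The log2 fold change of MSUS over control was 0.13 (SE 0.19, 95% confidence interval -0.26 to 0.52, adjusted p by limma = 0.937). The groups overlapped, and 5 of the 7 MSUS values exceeded the mean of the controls. Without control 10, the lowest sample, the change was -0.0081, and without control 22 it was 0.23.

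*Amh* has a close neighbour. *Sf3a2*, which encodes a splicing factor subunit used in all cells, ends 318 bases before *Amh* on the same strand. It had 3.61 log2 CPM per kb in controls and exceeded *Amh* in 13 of 13 samples, by 1.27 ± 0.38 on the log2 scale in controls. Its log2 fold change was -0.04 (SE 0.08, adjusted p by limma = 0.946). *Sf3a2* shares 429 exonic bases with *Plekhj1* on the opposite strand. Whether reads that run on from *Sf3a2* were counted for *Amh* was not tested.

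Most transcription factors named here that are known to act on the *Amh* promoter were abundant. *Nr0b1*, a repressor of NR5A1, had 6.70 log2 CPM per kb in controls, *Sox9* 6.62, *Sox8* 6.23, *Gata4* 5.99, *Wt1* 5.77, *Nr5a1* 5.49 and *Gata1* 4.98. *Nr2f2*, with -2.34, was scarce. Their log2 fold changes lay between -0.27, for *Nr2f2*, and 0.11, for *Nr0b1*. *Gata4* had a log2 fold change of -0.13 (SE 0.07, adjusted p by limma = 0.878).

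*Amhr2*, on chromosome 15 from 102445367 to 102454633, had 11409 to 15939 estimated counts in controls and 11217 to 13575 in MSUS samples. Control samples had 10.21 ± 0.08 log2 CPM and MSUS samples 10.14 ± 0.08. Its SD of 0.08 in each group was below the median of 0.231 over all genes tested. An SD below this median was not particular to *Amhr2*. The Sertoli cell markers *Sox9*, *Clu* and *Ctsl* had SDs of 0.07, 0.10 and 0.15 in controls and of 0.13, 0.09 and 0.18 in MSUS samples. The highest sample was control 24, with 10.33, and the lowest was MSUS 5. Its log2 fold change was -0.07 (SE 0.05, adjusted p by limma = 0.884), and its 95% confidence interval of -0.18 to 0.04 holds changes between 0.884-fold and 1.03-fold. Of the 7 MSUS samples, 5 were below the control mean. *Amhr2* is also known from Leydig cells, whose 7 marker genes together had 34.7 to 76.6 CPM in controls and 42.3 to 90.5 CPM in MSUS samples. *Amhr2* also exceeded *Sox9*, the transcription factor that defines Sertoli cells, by 2.58 ± 0.11 log2 units per kb in controls, and in 13 of 13 samples.

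Receptor and ligand were then compared within each sample. *Amhr2* exceeded *Amh* by 6.43, 6.85 and 7.31 log2 units per kb in controls (lowest, median and highest) and by 6.20, 6.55 and 7.22 in MSUS samples. The mean difference was 6.86 ± 0.28 in controls, a ratio of 117, and 6.67 ± 0.35 in MSUS samples, a ratio of 102. The distance was thus 0.19 smaller in MSUS samples, within the spread between samples (two-sided exact permutation p = 0.297, adjusted over 5 single values 0.495). It was 0.11 smaller without control 10 or without MSUS 1, and 0.29 smaller without MSUS 11. In 5 of 7 MSUS samples it lay between 6.20 and 6.58, while MSUS 11 and 26 had 7.22 and 7.05. Controls held 85695 *Amhr2* and 611 *Amh* counts in all, and this pooled ratio of 117 per kb has a 95% counting interval of 108 to 127 from the *Amh* count (exact Poisson). In MSUS samples the pooled ratio was 102, with an interval of 94.5 to 110. These intervals cover counting error only.

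*Bmp4*, on chromosome 14 from 46383520 to 46390669, was barely detected. It shares 89 exonic bases with *Gm15217* on the opposite strand. Its estimated counts in controls 9, 10, 12, 14, 22 and 24 were 3, 5.05, 0, 1.16, 5.06 and 1. In MSUS 1, 5, 6, 11, 13, 23 and 26 they were 0, 4.12, 1.01, 0, 1.03, 1.64 and 1.47. It did not pass the count filter and was not in the fit across genes. The variance between samples was 1.48 times the counting noise, so counting error made up most of its spread, and a difference was not detectable at this depth (log2 CPM -1.55 in controls and -1.87 in MSUS samples, two-sided exact permutation p = 0.347). *Bmpr2*, the type II receptor of BMP4, exceeded it by 5.86 ± 0.61 log2 units per kb in controls and by 6.28 ± 0.62 in MSUS samples (two-sided exact permutation p = 0.230, adjusted p = 0.495). With so few counts these values depend on the prior count of 2. From pooled counts, 11668 for *Bmpr2* against 15 for *Bmp4*, the ratio per kb in controls was 97.2, with an exact Poisson interval of 59.0 to 174, and in MSUS samples it was 184 with an interval of 97.1 to 403.

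Most other ligands of the family were scarce too. Of 16 further BMP and GDF genes, 2 passed the count filter. *Gdf11* was the higher of them, and *Gdf9*, known as an oocyte factor, had 0.07 log2 CPM per kb in controls. *Gdf9* had a log2 fold change of -0.42 (SE 0.39, adjusted p by limma = 0.903) and *Gdf11* one of 0.21 (SE 0.21, adjusted p by limma = 0.913). *Bmp15* was listed at 0 in all samples. *Bmp8b*, which germ cells are known to express, had 8 counts over the 6 control samples together.

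**Figure D2:**
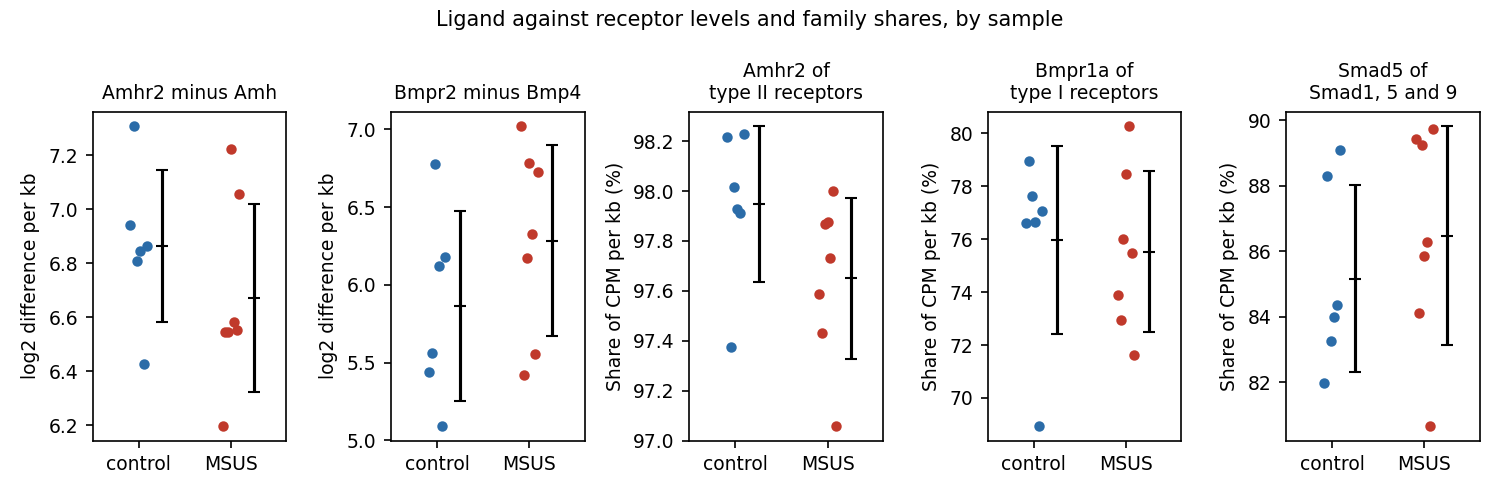
Within-sample values for 6 control (blue) and 7 MSUS (red) samples, with the mean ± SD beside the points. The first 2 panels plot receptor minus ligand in log2 CPM per kb and the other 3 plot the share in percent that 1 gene has of its family's summed CPM per kb, on axes that do not start at 0. The groups overlap in all 5 panels.

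The type II receptors differed in abundance far more than the groups did. Of the summed CPM per kb of *Amhr2*, *Bmpr2*, *Acvr2a* and *Acvr2b*, *Amhr2* held 97.9% ± 0.31 in controls and 97.7% ± 0.32 in MSUS samples. *Bmpr2* held 1.48% ± 0.23 and 1.66% ± 0.28, while *Acvr2a* and *Acvr2b*, the activin type II receptors that BMPs also use, each held under 1% in every sample, with highest values of 0.661% and 0.232%. The lowest, median and highest *Amhr2* shares were 97.4%, 98.0% and 98.2% for controls, and 97.1%, 97.7% and 98.0% for MSUS samples. The difference of -0.30 percentage points was within the spread (two-sided exact permutation p = 0.124, adjusted over the 5 values 0.495). It moved in both directions when single libraries were left out. Without control 10, which had the lowest share of the controls, the difference was -0.41 percentage points (two-sided exact permutation p = 0.0202, not adjusted). Without MSUS 26, the lowest of the MSUS samples, it was -0.20 percentage points (two-sided exact permutation p = 0.219, not adjusted).

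*Bmpr2*, on chromosome 1 from 59763400 to 59879014, is the receptor through which most BMPs signal. Its estimated counts were 1510, 1845 and 2848 in controls (lowest, median and highest) and 1357, 1870 and 2590 in MSUS samples. Control samples had 7.31 ± 0.14 log2 CPM and MSUS samples 7.41 ± 0.20. Control 10 stood apart with 7.60, against 7.21 to 7.29 in the other 5 controls. Between the groups the log2 fold change was 0.10 (SE 0.09, 95% confidence interval -0.09 to 0.29, adjusted p by limma = 0.899). MSUS 26, with 7.77, was highest and MSUS 23, with 7.19, lowest, so both extremes were MSUS samples. *Acvr2a*, with 1.43 log2 CPM per kb in controls, had a log2 fold change of 0.14 (SE 0.15, adjusted p by limma = 0.920), and *Acvr2b*, with -0.44, one of 0.37 (SE 0.26, adjusted p by limma = 0.879). All 3 further receptors, with *Acvrl1*, had positive log2 fold changes, and 0 passed the test at an unadjusted p of 0.05.

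*Bmpr1a* was the main type I receptor. It lies on chromosome 14 from 34410734 to 34503341 and had 889, 1222 and 1582 estimated counts in controls and 815, 1132 and 1414 in MSUS samples (lowest, median and highest). Control samples had 6.64 ± 0.13 log2 CPM and MSUS samples 6.63 ± 0.16. Its log2 fold change of -0.01 had a 95% confidence interval of -0.18 to 0.15 (SE 0.08, adjusted p by limma = 0.984), which leaves room for changes between 0.885-fold and 1.11-fold. Its exons share 290 bases with *Gm17110* on the opposite strand. The library kit keeps strand, but the strand setting of the counting is not given in the sources used here.

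*Acvr1*, on chromosome 2 from 58388644 to 58567157, encodes the type I receptor ALK2. Its estimated counts summed to 1551 over the controls and to 1710 over the MSUS samples. It varied more than *Bmpr1a* between samples, at 4.40 ± 0.22 log2 CPM (control) and 4.43 ± 0.37 (MSUS). For MSUS the log2 fold change was 0.03 (SE 0.15, 95% confidence interval -0.29 to 0.35, adjusted p by limma = 0.979). MSUS 26 had 5.05, above all other samples, and MSUS 13 had 4.02, below all others. *Bmpr1a* exceeded *Acvr1* in 13 of 13 samples, by 1.85 ± 0.27 log2 units per kb in controls.

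*Bmpr1b*, on chromosome 3 from 141837136 to 142169425, encodes the third type I receptor of AMH and BMPs, and it did not pass the count filter. Estimated counts in controls 9, 10, 12, 14, 22 and 24 were 1, 6, 6, 10, 17 and 4. In MSUS 1, 5, 6, 11, 13, 23 and 26 they were 0, 5, 0, 9, 8, 1 and 8. The groups overlapped (log2 CPM -0.57 ± 0.88 and -1.14 ± 1.13, two-sided exact permutation p = 0.341). The variance between samples was 3.68 times the counting noise, so these counts differed between samples by more than counting error. From pooled counts *Bmpr1a* was 156 times as abundant per kb as *Bmpr1b* in controls, with an exact Poisson interval of 116 to 215, and 233 times in MSUS samples, with an interval of 164 to 342. Both intervals cover counting error only and not the spread between samples.

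Of the type I receptors, *Bmpr1a* held 76.0% ± 3.55 of the summed CPM per kb in controls and 75.5% ± 3.05 in MSUS samples. *Acvr1* held 21.2% ± 3.16 and 21.7% ± 3.50, *Acvrl1*, a receptor best known from endothelial cells, 2.36% and 2.45%, and *Bmpr1b* 0.502% and 0.327%. The *Bmpr1a* share did not pass the test (difference -0.45 percentage points, two-sided exact permutation p = 0.809). Control 22 was the lowest of all samples with 69.0%, against 76.6% to 79.0% in the other controls, and without it the difference was -1.86 percentage points (two-sided exact permutation p = 0.220).

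Of the signal transducers, *Smad5* was well above *Smad1*. *Smad5*, on chromosome 13 from 56703010 to 56742377, had 455, 599 and 845 estimated counts in controls and 463, 542 and 688 in MSUS samples (lowest, median and highest). Control samples had 5.67 ± 0.11 log2 CPM and MSUS samples 5.68 ± 0.14. It shares 100 exonic bases with *Gm27301* on the same strand. MSUS over control gave a log2 fold change of 0.0021, the nearest to 0 of the 8 genes tested, with a 95% confidence interval of -0.16 to 0.16 (adjusted p by limma = 0.997), and its sign turned with the normalization. *Smad1*, on chromosome 8 from 79338395 to 79399518, had 56, 94.5 and 109 estimated counts in controls and 52, 65 and 89 in MSUS samples. Control samples had 2.87 ± 0.27 log2 CPM and MSUS samples 2.68 ± 0.38. The log2 fold change of -0.21 (SE 0.18, 95% confidence interval -0.60 to 0.18, adjusted p by limma = 0.899) was the lowest of the 8, and 5 of the 7 MSUS values lay under the mean of the controls. MSUS 1, with 2.22, was lowest and MSUS 23, with 3.28, highest.

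Per kb, *Smad5* exceeded *Smad1* in 13 of 13 samples, by 2.56 ± 0.33 log2 units in controls and by 2.76 ± 0.36 in MSUS samples. It held 85.2% ± 2.86 of the summed CPM per kb of *Smad1*, *Smad5* and *Smad9* in controls and 86.5% ± 3.34 in MSUS samples (two-sided exact permutation p = 0.453, adjusted p = 0.567). *Smad9* did not pass the count filter and had 17 counts over the 6 controls. *Smad4*, the shared partner of these Smads, had 3.48 log2 CPM per kb in controls and a log2 fold change of -0.0022 (SE 0.07, adjusted p by limma = 0.996).

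*Id1*, on chromosome 2 from 152736251 to 152737410, encodes an inhibitor of basic helix-loop-helix factors and is the standard readout of BMP signals. It had few counts. In controls 9, 10, 12, 14, 22 and 24 there were 18, 11, 10, 16, 7 and 15. In MSUS 1, 5, 6, 11, 13, 23 and 26 there were 18, 12, 12, 14, 13, 7 and 17. Both groups thus ran from 7 to 18 with a median of 13. Control samples had 0.27 ± 0.59 log2 CPM and MSUS samples 0.43 ± 0.30. Its log2 fold change was 0.26 (SE 0.33, adjusted p by limma = 0.929), and its 95% confidence interval of -0.43 to 0.96 includes folds from 0.743 to 1.94. It was 0.07 without control 22 and 0.39 without control 9, and edgeR and DESeq2 gave 0.13 and 0.14. The variance between samples was 1.54 times the counting noise, so depth limited what could be seen for this gene. *Id1* is also expressed by endothelial cells. The mean level of 7 endothelial markers was 1.42 ± 0.27 log2 CPM in controls and 1.70 ± 0.21 in MSUS samples (two-sided exact permutation p = 0.0653, adjusted over 10 lists 0.653), and of the 5 that passed the count filter, *Tek*, *Pecam1*, *Vwf* and *Kdr* had log2 fold changes of 0.75, 0.26, 0.22 and 0.18 and *Cdh5* one of -0.15, with adjusted p-values by limma from 0.878 to 0.950. The summed level of the endothelial list was 54.9 to 70.6 CPM in controls and 54.8 to 75.5 CPM in MSUS samples. Of its 7 genes, 4 had at least 10 counts in every sample. *Tie1* and *Egfl7*, which did not pass the count filter, had 20 and 61 counts over the 13 samples together. The part of endothelial cells in the *Id1* level was not tested.

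The Id genes differed in level. *Id2* had 4.28 log2 CPM per kb in controls and exceeded *Id1* in 13 of 13 samples, by 4.23 ± 0.61, a ratio of 18.7. *Id4* had 3.83 and also exceeded *Id1* in 13 of 13 samples, by 3.78 ± 0.52. *Id3* was close to *Id1*, with -0.01 log2 CPM per kb, and was higher in 7 of 13 samples, and in controls the sign of their difference turned with the gene length used (-0.07 with the union of exons, 0.42 with the longest transcript). Log2 fold changes were -0.06 for *Id2*, 0.05 for *Id4* and -0.09 for *Id3*, with limma's adjusted p-values from 0.943 to 0.976. These comparisons within the Id family were chosen after the values were seen.

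**Figure D3:**
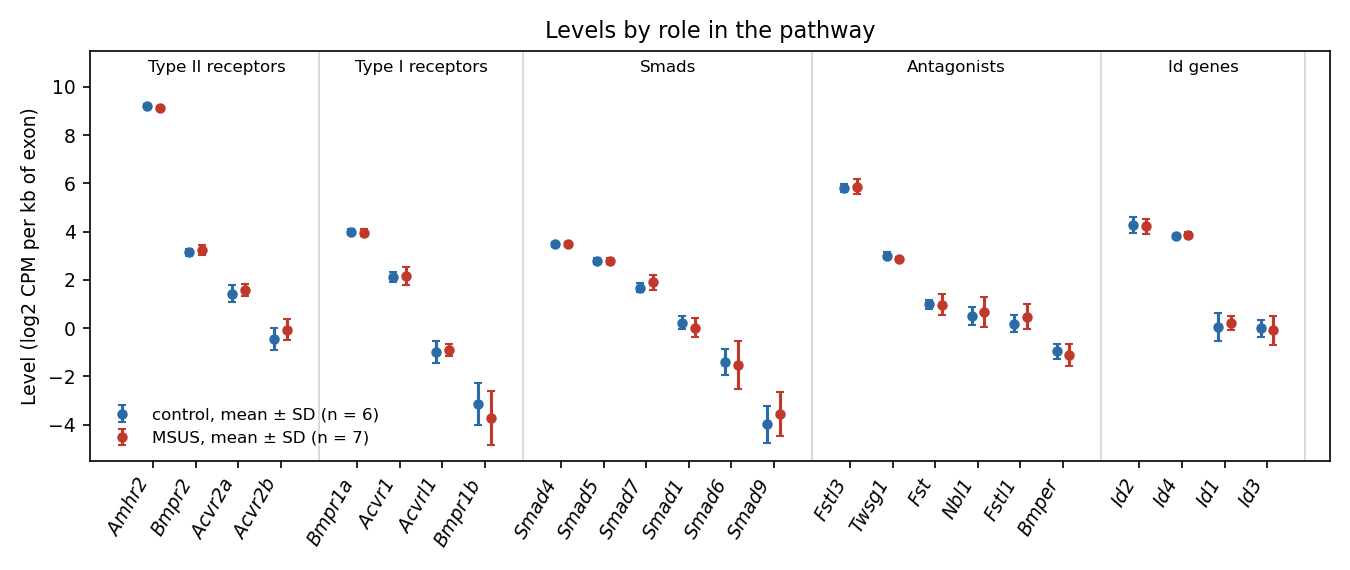
Level in log2 CPM per kb of exon (vertical axis) of receptors, Smads, secreted antagonists and Id genes, as mean ± SD for 6 control (blue) and 7 MSUS (red) samples. *Amhr2* lies above every other gene shown, *Fstl3* comes next, and control and MSUS points lie close together.

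Across the 10 genes, no difference between MSUS and control samples passed the test. Of the 10 genes, 8 passed the count filter and were tested with all 14421 genes by limma voom. An adjusted p-value under 0.05 was reached by 0 of the 8, against 0.00% of all genes tested, and an unadjusted p-value under 0.05 also by 0 of the 8, against 5.42% (781 genes) of all genes, 3.02% with a higher and 2.40% with a lower level in MSUS samples. edgeR's quasi-likelihood test and DESeq2 gave 0 of 8 at both thresholds too, and 0 of all genes after adjustment, with 793 and 835 genes in all at an unadjusted p under 0.05. Adjusted p-values by limma lay between 0.884, for *Amhr2*, and 0.997, for *Smad5*. Of these 8 genes, 5 had positive and 3 negative log2 fold changes, with a median of 0.02, against -0.0017 for all genes tested. The groups overlapped in all 10 genes, while they did not overlap in 0.132% of the genes tested. The confidence intervals show what size of change the data could still hold, from 0.662-fold for *Smad1* to 1.94-fold for *Id1*. Whether a level stems from fewer cells of a type or from less RNA per cell cannot be told apart in such bulk samples.

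**Figure D4:**
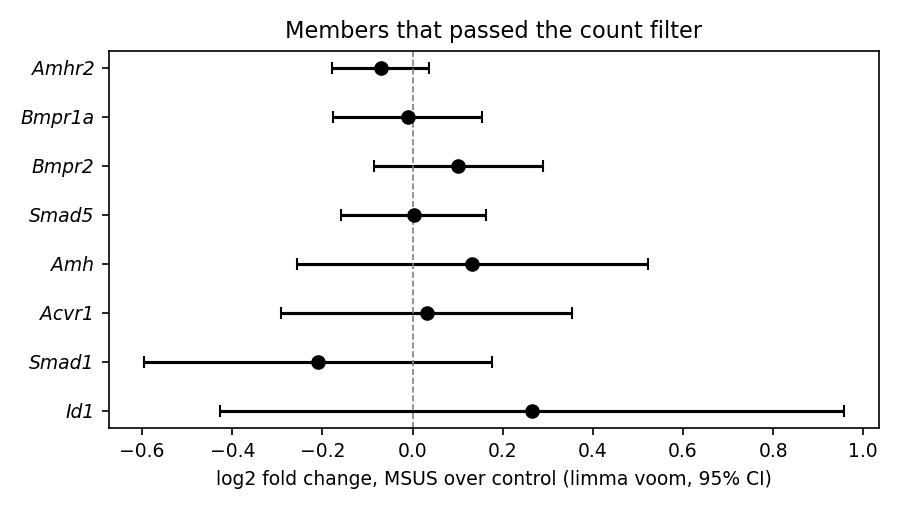
Log2 fold change of MSUS over control (horizontal axis, points) with 95% confidence intervals (bars) from limma voom for the 8 genes that passed the count filter, for 6 control and 7 MSUS samples. All 8 intervals include 0, and they are narrowest for *Amhr2* and widest for *Id1*.

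Some of the genes varied together. Over the 13 samples, with group means removed, *Bmpr2* correlated with *Smad5* (Pearson's r = 0.65), *Bmpr1a* (r = 0.56) and *Acvr1* (r = 0.48), and all 4 genes had their highest level in MSUS 26. *Amhr2* and *Amh* had r = 0.30 with each other and -0.44 each with *Bmpr2*. These values share libraries and normalization and are given as a description. Among 7922 genes with a mean of at least 4 log2 CPM, those most like *Amhr2* over the 13 samples were *Folr1* (Pearson's r = 0.94), *H4c3* (r = 0.91) and *Npl* (r = 0.90). For *Id1* they were *Foxp1* (r = 0.83), *Rdh13* (r = 0.81) and *Ptp4a2* (r = 0.79), with *Id1* itself at 7 to 18 counts per sample. Group means were not removed for these values. They were picked as the highest of 7922 and 7923 correlations over 13 samples, and how high chance alone would reach was not tested.

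The wider pathway was read from the same fit. Of 55 other genes, 30 passed the count filter, and of these 0 had a p-value under 0.05 before or after adjustment, against 5.42% and 0.00% of all genes tested by limma. Of these 30, 16 had positive and 14 negative log2 fold changes, with a median of 0.03. Among co-receptors, *Neo1*, the receptor of the RGM proteins, was the most abundant with 5.23 log2 CPM per kb in controls and a log2 fold change of 0.03 (SE 0.08, adjusted p by limma = 0.963). *Rgma* and *Rgmb*, BMP co-receptors themselves, had log2 fold changes of 0.12 and -0.09. Among inhibitors in the cell, *Fkbp1a*, which keeps type I receptors silent, had the highest level with 5.74 log2 CPM per kb and a log2 fold change of -0.11 (SE 0.07, adjusted p by limma = 0.878). *Smad7*, an inhibitory Smad, had 1.68 and a log2 fold change of 0.22 (SE 0.14, adjusted p by limma = 0.878).

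Of 12 secreted antagonists, 6 passed the count filter. *Fstl3*, which binds activins and some BMPs, was the highest with 5.81 log2 CPM per kb in controls, above every BMP or GDF ligand and every receptor examined apart from *Amhr2*. *Twsg1*, which binds BMPs together with chordin, had 3.01 log2 CPM per kb and *Fst*, follistatin, 0.99. The BMP antagonists *Nog*, *Chrd* and *Grem1* did not pass the filter. *Grem1*, named after its values were seen, had 4.46 to 10.5 estimated counts in controls and 1.71 to 5.19 in MSUS samples, or -0.48 and -1.19 log2 CPM on average (two-sided exact permutation p = 0.0245, not adjusted). All 7 MSUS values lay under the mean of the controls, and the groups overlapped. Log2 fold changes of the 6 antagonists lay between -0.15 for *Bmper* and 0.27 for *Fstl1*. Of 9 other target genes, 6 passed the filter, with log2 fold changes from -0.25 for *Hey1* to 0.25 for *Gata2*.

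**Figure D5:**
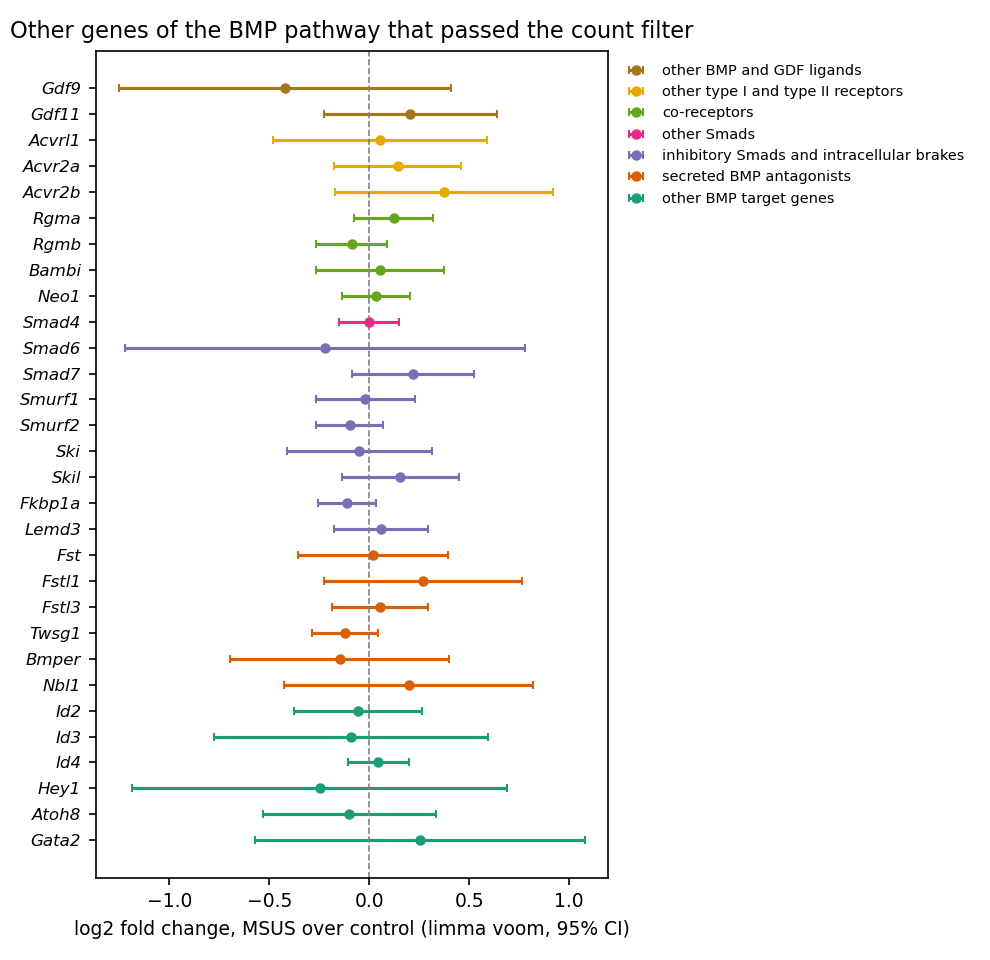
Log2 fold change of MSUS over control (horizontal axis, points) with 95% confidence intervals (bars) from limma voom for the 30 other pathway genes that passed the count filter, coloured by role. Every interval includes 0, and the widest belong to genes with few counts such as *Smad6*.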

How the data were processed

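RNA of sorted Sertoli cells from 6 control and 7 MSUS males was sequenced from 5 ng per library. The authors trimmed reads with Trim Galore 0.6.5, ran Salmon 1.1.0 on GENCODE vM23 transcripts and deposited estimated counts per gene, not normalized. How transcripts were summed to genes is not given in the sources used here. Of 54281 features, 27170 without a gene name held 20.7% to 26.7% of the counts and entered neither library sizes nor tests. Estimated counts were rounded.

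As in the study's methods, TMM normalization and limma voom were used (limma 3.58.1, edgeR 4.0.16, R 4.3.3), with group as the only term, all 13 samples, edgeR's filterByExpr and Benjamini-Hochberg adjustment over all genes. DESeq2 1.42.0 was an alternative. Log2 CPM has a prior count of 2. Lengths are the union of exons in GENCODE vM21 on GRCm38, the build of vM23, and 92.8% of the genes tested had one. For single values every regrouping of the 13 samples was enumerated (two-sided exact permutation test), for which 0.000583 is the lowest p attainable. The fit was tested on simulated data. Pairs of libraries differed by 6.05 to 48.7 times the sampling noise, so none was a copy. Spread between samples limits precision for most genes, and counting error for *Bmp4* and *Id1*.

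Genes named are the members, factors acting on *Amh*, its neighbour, and up to 3 genes of each pathway role (unadjusted p under 0.05, or the highest per kb in controls). Further pathway genes named, and pairs of levels other than the 5 single values, were chosen after their values were seen. The members and lists were chosen with earlier results of these data known. Replicates are mice, numbered as in the sample titles. Litter and cage, which the paper lists for each mouse, were not analysed here, so the tests treat the mice as independent. Alternatives were other normalizations, filters, tools, gene lengths, prior count, covariates and leaving out each sample. Some listed genes are not reported here.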

Additional observations from a re-analysis of the deposited data

Results flagged for a closer look

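The per-sample values of the 10 genes and of the 5 single values were searched, in each group, for a highest or lowest value set apart from the next one by more than Dixon's 95% critical value as a share of the range. Of 30 groups of values, 3 held such a sample, where chance gives about 1 in 20, or 1.5. *Bmpr2* was high in control 10, with 7.60 log2 CPM against 7.21 to 7.29 in the other controls. The *Amhr2* share of type II receptors was low in the same library, with 97.4% against 97.9% to 98.2%. Both values use its *Bmpr2* counts, and the share also uses its *Amhr2* level. That level was the lowest of the controls, with 538 CPM per kb against 578 to 641. The *Bmpr1a* share of type I receptors was low in control 22, with 69.0% against 76.6% to 79.0%.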

How the results depend on the processing

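Of the 10 genes, none tested passed 0.05, before or after adjustment, in the 12 fits of all samples or in the 13 that each left out 1 sample, where tested means 8 of the 10 genes, and all 10 with no count filter. The sample labels give no pairing of control with MSUS mice, and no paired analysis was made. The number of genes at an unadjusted p under 0.05 was 1182 with no count filter, where more genes were tested, and 1205 with the elongated spermatid score as covariate. It was 534 to 1121 when 1 sample was left out. The log2 fold change of *Smad5* turned to -0.014 with library size alone, -0.0097 with upper quartile normalization, -0.0036 with no count filter and -0.0047 with the unnamed features kept. That of *Acvr1* turned to -0.023 with sample quality weights. The causes were not tested. With 1 sample left out, ranges were -0.0081 to 0.23 for *Amh*, -0.051 to 0.019 for *Bmpr1a*, -0.074 to 0.11 for *Acvr1*, -0.024 to 0.041 for *Smad5*, -0.098 to -0.047 for *Amhr2*, 0.046 to 0.16 for *Bmpr2*, -0.30 to -0.13 for *Smad1* and 0.071 to 0.39 for *Id1*. Differences in log2 CPM ranged from -0.84 to -0.33 for *Bmpr1b* and from -0.52 to -0.19 for *Bmp4*. The difference in the *Amhr2* share ranged from -0.41 to -0.20 percentage points and passed 0.05 only without control 10, and that in the *Bmpr1a* share ranged from -1.86 to 0.19. For *Amhr2* minus *Amh* the range was -0.29 to -0.11, for *Bmpr2* minus *Bmp4* 0.27 to 0.61 and for the *Smad5* share 0.67 to 2.28 percentage points.

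Control levels moved with the gene length used. With median transcript length *Amhr2* exceeded *Amh* by 8.58 and *Bmpr2* exceeded *Bmp4* by 6.73 log2 units, and the shares were 89.0% for *Bmpr1a* and 80.4% for *Smad5*. With the longest transcript the shares were 97.4% for *Amhr2*, 70.3% for *Bmpr1a* and 79.8% for *Smad5*. With a prior count of 0.5, *Bmpr2* exceeded *Bmp4* by 6.73. Depth limits *Bmp4* and *Id1*.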
